A study of Mus musculus with 9 samples.

Results

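The transcripts described here are those of 10 mouse genes that encode the MHC class II molecules and the proteins that load them with peptide. They were taken by name from a table of 21930 protein-coding genes measured in lung RNA, and all 10 were among the 15636 genes that passed the filter on low counts. The set holds the classical chains H2-Aa, H2-Ab1 and H2-Eb1, the invariant chain Cd74, the transactivator Ciita, the peptide exchange factor chains H2-DMa, H2-DMb1 and H2-DMb2, and the chains of its inhibitor, H2-Oa and H2-Ob. The rule names the genes and uses no measured value, though the set was proposed with earlier results of these data known.

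The study compared whole lungs of C57BL/6 mice, labelled male and aged 6 to 8 weeks, in 3 groups of 3 separate animals. Mice of the LPS plus RSBD group were given 2 mg/kg lipopolysaccharide (LPS, the endotoxin in the wall of Gram-negative bacteria) into the trachea under tribromoethanol, and from the following day the boiled extract of a multi-herb formula, Renshen Baidu Powder (RSBD), by daily gavage for 5 days. The LPS group was given the same dose of LPS with vehicle gavage, and the control group was given sterile saline into the trachea in place of LPS. Gavage for 5 days is listed for the control and LPS groups as well. All lungs were taken on day 5 after instillation, and strand-specific libraries of enriched mRNA were sequenced as paired reads of 150 bases. The question was what LPS changed in the lung at that time and what the decoction changed on top of LPS.

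MHC class II molecules display peptides from endocytosed proteins to CD4+ T cells. The alpha and beta chains assemble in the endoplasmic reticulum with the invariant chain, which blocks the groove until cathepsins cut it down to a short remnant, CLIP, in the endosome. H2-DM then exchanges CLIP for peptide, and H2-O restrains H2-DM, mainly in B cells. Transcription of the classical chain genes depends on CIITA, a co-activator that binds no DNA itself. It is recruited by RFX, CREB and NF-Y bound to the X and Y boxes upstream of these genes. In the lung, class II is carried by dendritic cells, B cells, macrophages and alveolar type 2 cells. C57BL/6 mice carry an H2 haplotype with no functional E alpha chain, so their H2-Eb1 transcript is not matched by an E molecule at the cell surface.

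Total counts per library ranged from 26959662 to 36113905, and mitochondrial genes took 2.21 to 3.36% of the counts. Chromosome Y genes had 7511 to 10918 reads in each LPS plus RSBD and LPS library, against 6 to 9 reads in each control library, although all 9 mice are labelled male. The effect of the treatments and whatever else separates the control mice from the others cannot be told apart in the comparisons with control. LPS plus RSBD and LPS libraries were alike in these reads. No batch is given.

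On mouse chromosome 17 (GRCm38), 8 of the 10 genes lie within 224335 bases, in the order H2-Oa, H2-DMa, H2-DMb2, H2-DMb1, H2-Ob, H2-Ab1, H2-Aa and H2-Eb1. RefSeq promoters of 300 bases (250 before to 50 after the annotated start, GRCm38.p6) were found for 7 of the genes. The promoters of H2-Aa, H2-Eb1, H2-Oa, H2-Ob, H2-DMb1 and H2-DMb2 are shown, each as 84 bases on the gene's own strand around its ATTGG, the sense-strand letters of the Y box that NF-Y binds, because they let the shared control elements of the genes be seen side by side. Capitals mark ATTGG and, upstream of it where the letters were found, the core of the X box that RFX and CREB bind.
H2-Eb1 (chr17:34305745-34305828, plus strand): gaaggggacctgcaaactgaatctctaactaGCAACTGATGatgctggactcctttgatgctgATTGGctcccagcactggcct
H2-DMb1 (chr17:34153067-34153150, plus strand): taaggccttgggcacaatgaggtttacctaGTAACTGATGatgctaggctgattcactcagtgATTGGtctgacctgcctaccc
H2-DMb2 (chr17:34145096-34145179, plus strand): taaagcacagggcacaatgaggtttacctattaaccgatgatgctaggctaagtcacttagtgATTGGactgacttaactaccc
H2-Ob (chr17:34238785-34238868, plus strand): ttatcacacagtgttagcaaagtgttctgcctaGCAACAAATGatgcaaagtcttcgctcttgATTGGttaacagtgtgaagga
H2-Aa (chr17:34287851-34287934, minus strand): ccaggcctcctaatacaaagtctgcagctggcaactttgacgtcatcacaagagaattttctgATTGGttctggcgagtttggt
H2-Oa (chr17:34092273-34092356, plus strand): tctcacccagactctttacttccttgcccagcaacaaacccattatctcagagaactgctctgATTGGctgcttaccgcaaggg

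In these 6 promoters the ATTGG began 43 to 90 bases before the annotated start. Of the 2 H2-DMa promoters, not shown, 1 had no ATTGG and the other had it 198 bases before the start. On either strand, ATTGG was found in 7 of the 8 promoters listed for the genes (H2-DMa has 2), against 37.4% of all 32851 promoters in the table. The X box core, searched on both strands as G, any 2 letters, AC, any 2 letters, ATG, was found in 4 of the 8, against 8.97% of all. These were the promoters of H2-Oa, H2-DMb1, H2-Ob and H2-Eb1. In H2-Oa the match was not on the gene's own strand upstream of ATTGG within the window shown, so none is marked there. H2-Aa lacks this exact pattern, which does not show that it lacks an X box. The pair, with the core 8 to 20 bases before ATTGG, was found in 1 of the 8 (H2-Ob) and in 0.0974% of all promoters. A wider spacing of 15 to 30 bases, set after the sequences had been seen, took in H2-Eb1 and H2-DMb1 as well and 0.155% of all promoters. Between the H2-DMb1 and H2-DMb2 windows 71 of 84 letters are the same. Counted from 1 at the first base of the H2-DMb1 core, the core differs from H2-DMb1 to H2-DMb2 by G1T and T6C. A match of letters is a description and shows no binding in these lungs.

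Per length, class II transcripts ranged from among the most abundant in the lung to a low level. Cd74 averaged 1833 ± 469 TPM (abundance corrected for transcript length and library size) in LPS plus RSBD lungs, 1642 ± 343 TPM in LPS lungs and 1050 ± 247 TPM in control lungs (SD, n = 3 each), at the 99.8th percentile of the genes tested. H2-Aa, H2-Ab1, H2-Eb1, H2-DMb1 and H2-DMa followed in that order, and each stood above the next in all 9 libraries. Mean TPM of H2-Aa was 569 in LPS plus RSBD, 563 in LPS and 297 in control lungs, whereas that of H2-DMa was 44.0, 42.5 and 25.6 in the same groups. The next places were not separated: Ciita was above H2-Ob in 5 libraries and below it in 4. H2-Oa was lowest, with 7.60 TPM in LPS plus RSBD, 6.79 TPM in LPS and 3.34 TPM in control lungs. Together the 10 genes summed to 2589 to 4316 TPM in LPS plus RSBD, 2349 to 3736 TPM in LPS and 1463 to 2219 TPM in control libraries, and the 3 classical chains with Cd74 made up 92.9 to 94.8% of that sum.

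On day 5 most class II transcripts were higher in LPS lungs than in control lungs, and none differed past the threshold between LPS plus RSBD and LPS lungs. In LPS against control, H2-Aa, H2-Eb1, H2-DMa, H2-DMb1, H2-Oa and Ciita rose, by 1.61- to 2.18-fold, while H2-Ab1, H2-DMb2, H2-Ob and Cd74 had fitted folds of 1.52 to 1.72 and did not pass. This makes 6 of 10 genes called, against 17.4% of all genes tested called in either direction and 8.79% called higher (edgeR's quasi-likelihood test, Benjamini-Hochberg adjusted over all genes, threshold 0.05). In 7 of the 10 every LPS library was above every control library, as in 18.6% of all genes. The median log2 fold change of the 10 was 0.84, with a range of 0.60 to 1.13, against -0.01 for all genes, and 10 of 10 had an unadjusted p under 0.05, against 34.55% of all genes. More cells of a type and more RNA per cell cannot be told apart in whole lung.

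**Figure D1:**
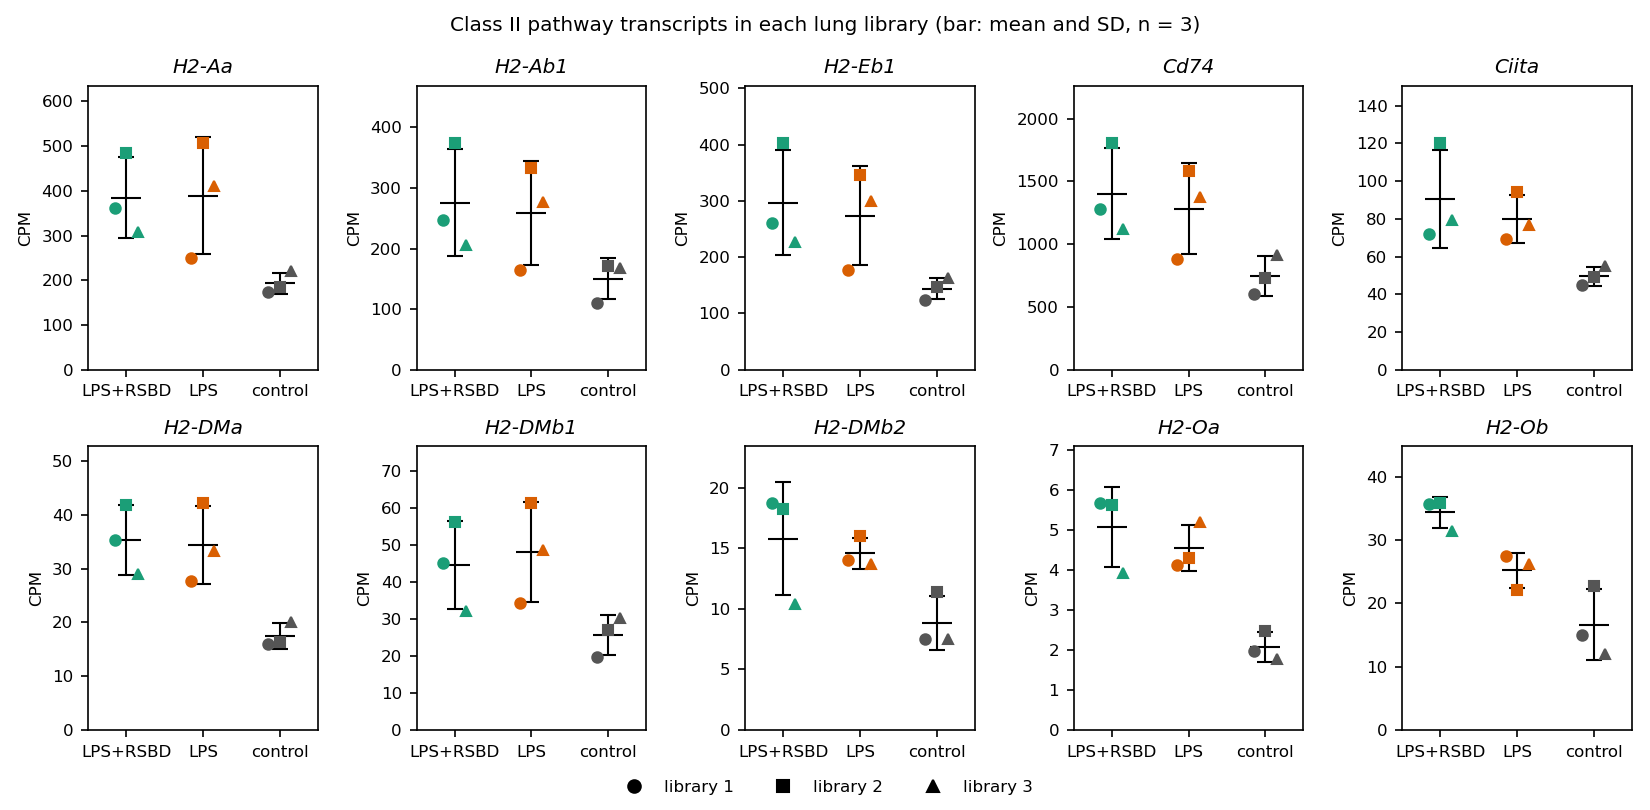
CPM (counts scaled to library size) of each class II gene in each library, with every axis starting at 0; symbols are libraries and bars the mean and SD of 3. The 7 genes from H2-Aa to H2-DMb1 share the low LPS library 1 and the high LPS plus RSBD library 2, while H2-Ob is highest in the 3 LPS plus RSBD libraries.

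The classical alpha chain H2-Aa had 362, 485 and 308 CPM (counts scaled to library size, not to length) in the LPS plus RSBD libraries, 249, 507 and 412 CPM in the LPS libraries and 174, 186 and 220 CPM in the control libraries. All 6 LPS-treated lungs were above all 3 controls, and the 2 treated groups overlapped almost entirely. Its log2 fold change was 1.01 ± 0.25 (SE) in LPS against control (adjusted p = 0.0296, edgeR), and 1.00 ± 0.25 in LPS plus RSBD against control, which did not pass (adjusted p = 0.0645).

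Its partner beta chain H2-Ab1 had 247, 375 and 207 CPM with LPS plus RSBD, 165, 334 and 276 CPM with LPS, and 111, 172 and 168 CPM in controls. LPS library 1 fell within the control range and the other LPS-treated libraries lay above it. The difference of LPS from control was 0.78 ± 0.30 on the log2 scale and did not pass (edgeR adjusted p = 0.0993).

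H2-Eb1, the beta chain without a partner in this strain, moved through the libraries with H2-Aa. It had 261, 403 and 227 CPM in LPS plus RSBD lungs, 177, 346 and 299 CPM in LPS lungs and 124, 147 and 162 CPM in control lungs. No LPS-treated library overlapped the controls, and H2-Eb1 rose 1.90-fold in LPS against control (log2 0.92 ± 0.27, edgeR adjusted p = 0.0471).

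The invariant chain Cd74, on chromosome 18, escorts all the classical chains. Its libraries held 1282, 1808 and 1121 CPM with LPS plus RSBD, 883, 1585 and 1378 CPM with LPS, and 600, 733 and 914 CPM in controls. LPS library 1 lay below control library 3, and the other treated libraries lay above all controls. The log2 difference of LPS from control, 0.78 ± 0.25, did not pass (edgeR adjusted p = 0.0611). The log2 ratio of Cd74 to the summed classical chains, in TPM, was 0.49 ± 0.05 in LPS plus RSBD, 0.42 ± 0.10 in LPS and 0.56 ± 0.11 in control lungs (SD, n = 3 each). The difference of LPS from control was -0.14 and that of LPS plus RSBD from LPS 0.07, each with an exact 2-sided permutation p of 0.3 where 0.1 is the smallest that 3 against 3 can give.

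Ciita, on chromosome 16, encodes the transactivator of class II transcription. It had 71.8, 120 and 79.5 CPM in LPS plus RSBD libraries, 69.1, 94.0 and 76.6 CPM in LPS libraries and 44.9, 49.2 and 54.8 CPM in control libraries. The LPS-treated libraries were all above the controls, and the rise was 1.61-fold in LPS against control (log2 0.69 ± 0.19, edgeR adjusted p = 0.0393) and 1.83-fold in LPS plus RSBD against control (log2 0.87 ± 0.19, adjusted p = 0.0424). The gene model overlaps Dexi on the opposite strand, as those of H2-Eb1 and H2-Oa overlap annotated antisense genes, and whether the counting used strand is not stated in the sources used here.

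**Figure D2:**
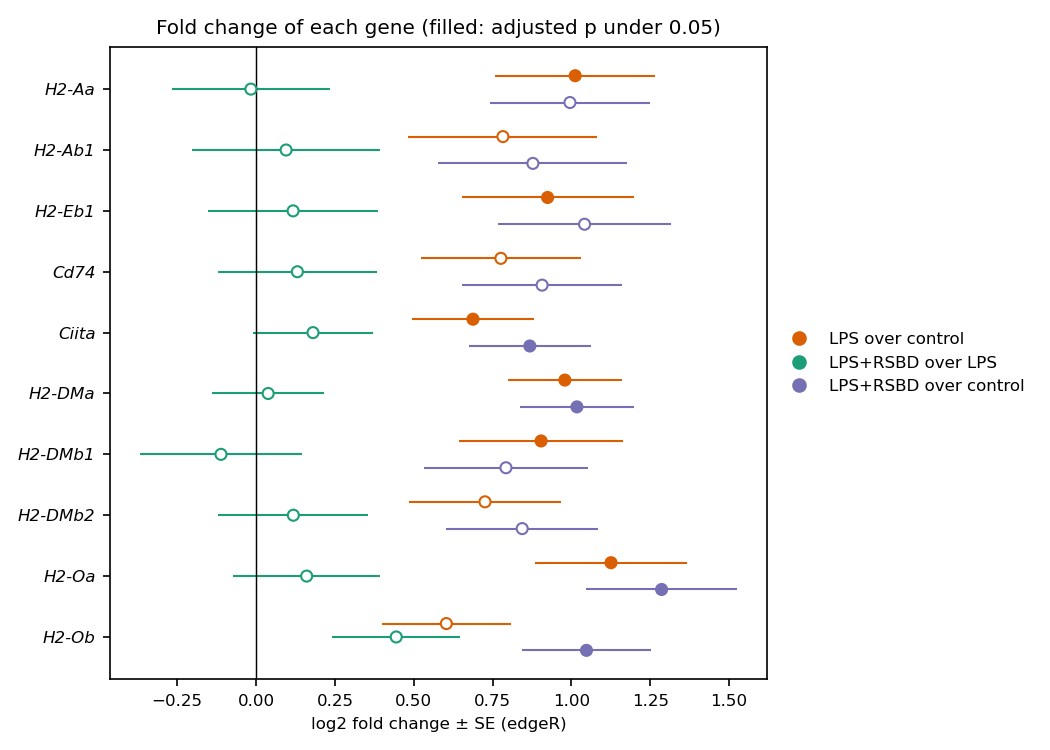
Log2 fold change with its SE (edgeR) of the 10 class II genes in the 3 comparisons; filled points have an adjusted p under 0.05. All 10 points lie at 0.60 or above in LPS against control, and those of LPS plus RSBD against LPS lie between -0.11 and 0.44, none filled.

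Among the chains of the exchange factor, H2-DMa showed the smallest error of the set. It had 35.3, 41.9 and 28.9 CPM with LPS plus RSBD, 27.8, 42.2 and 33.3 CPM with LPS, and 15.9, 16.3 and 20.2 CPM in controls. The treated libraries did not overlap the controls, and the log2 fold change was 0.98 ± 0.18 in LPS against control (adjusted p = 0.0094, edgeR) and 1.02 ± 0.18 in LPS plus RSBD against control (adjusted p = 0.0209). In LPS against control it kept its call under all 18 alternatives run, with adjusted p up to 0.0436. Its model overlaps Brd2, which is lower in LPS lungs.

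H2-DMb1, the main beta chain, had 45.2, 56.2 and 32.3 CPM in LPS plus RSBD lungs, 34.4, 61.4 and 48.6 CPM in LPS lungs and 19.7, 27.2 and 30.3 CPM in controls. Every treated library was above every control, by a narrow margin at the low end, and the gene rose 1.87-fold in LPS against control (log2 0.90 ± 0.26, edgeR adjusted p = 0.0440). H2-DMb2, its duplicate, had 18.7, 18.3 and 10.4 CPM with LPS plus RSBD, 14, 16 and 13.7 CPM with LPS, and 7.50, 11.4 and 7.54 CPM in controls. LPS plus RSBD library 3 lay within the control range, and the log2 difference of LPS from control, 0.73 ± 0.24, did not pass (edgeR adjusted p = 0.0628). Of the 50-base stretches of their annotated transcripts, 22.7% of those of H2-DMb1 and 21.2% of those of H2-DMb2 are found in the other gene. At 150 bases, the length of a read, the shares are 4.71% and 4.14%, so some reads may have been split between them.

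The inhibitor chain H2-Oa had the largest fold change of the 10 in LPS against control. It had 5.68, 5.62 and 3.93 CPM in LPS plus RSBD libraries, 4.12, 4.31 and 5.20 CPM in LPS libraries and 1.97, 2.48 and 1.78 CPM in control libraries. Treated and control libraries did not overlap, and the counts behind these values were 50 to 207 reads per library. The log2 fold change was 1.13 ± 0.24 in LPS against control (adjusted p = 0.0147, edgeR) and 1.29 ± 0.24 in LPS plus RSBD against control (adjusted p = 0.0242). The first call was lost only without control library 3, where the adjusted p was 0.0552. The second was lost under 6 of 18 alternatives: without LPS plus RSBD library 1 or 2, without each control library and with the replicate block, where the adjusted p was 0.0548 to 0.0857 (edgeR).

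H2-Ob, the other inhibitor chain, had its highest values in the LPS plus RSBD libraries. Its libraries held 35.7, 35.8 and 31.4 CPM with LPS plus RSBD, 27.4, 22.1 and 26.2 CPM with LPS, and 15.1, 22.8 and 11.9 CPM in controls. All 3 LPS plus RSBD libraries were above all LPS libraries, while LPS library 2 lay below control library 2. The log2 difference was 0.60 ± 0.20 in LPS against control, which did not pass (edgeR adjusted p = 0.0672), and 1.05 ± 0.21 in LPS plus RSBD against control, where it rose (adjusted p = 0.0274). The 2 comparisons share the control libraries.

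On top of LPS, RSBD gave no call: 0 of the 10 genes were called in LPS plus RSBD against LPS, and 0 of 15636 genes were called either higher or in either direction, a share of 0.0% (edgeR). At an unadjusted p under 0.05 there were 0 of the 10 and 1473 of all genes. DESeq2 called 157 genes in this comparison and limma on log2(TPM + 1) called 1, with 0 of the 10 in either. H2-Ob came nearest, with a log2 difference of 0.44 ± 0.20 (unadjusted p = 0.0529, adjusted p = 0.532), and it was the only one of the 10 with every LPS plus RSBD library above every LPS library, as in 7.18% of all genes. The median difference of the 10 was 0.12, against 0.01 for all genes, and 8 of the 10 were above 0.

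These data leave a range of effects of RSBD. The 95% interval of the fold of LPS plus RSBD over LPS was 0.67 to 1.47 for H2-Aa, 0.67 to 1.70 for H2-Ab1 and 0.71 to 1.66 for H2-Eb1. It was 0.74 to 1.62 for Cd74 and 0.84 to 1.52 for Ciita. Intervals were tightest for H2-DMa, at 0.78 to 1.35, and reached from 0.995 to 1.86 for H2-Ob. A change of 2-fold lay outside the interval of every one of the 10 genes.

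Against control, LPS plus RSBD lungs had 4 of 10 genes called, all higher: H2-DMa, H2-Oa, H2-Ob and Ciita. The share of all genes called was 3.7% in either direction and 1.89% higher (edgeR). In 9 of the 10, all but H2-DMb2, every LPS plus RSBD library was above every control library, as in 15.4% of all genes. The classical chains and Cd74 had fold changes of 1.84 to 2.06 with adjusted p between 0.0645 and 0.129, and did not pass, nor did H2-DMb1 and H2-DMb2. Of the 18 alternatives, 4 ended the call of H2-DMa, 6 each those of H2-Oa and H2-Ob and 10 that of Ciita.

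Single libraries decided many of these calls. In LPS against control, the count of 6 became 2 without LPS library 2, LPS library 3 or control library 1, 3 without control library 2 and 1 without control library 3. In LPS plus RSBD against control, the count of 4 became 2 without LPS plus RSBD library 1, 0 without LPS plus RSBD library 2 or control library 1, 1 without control library 2 or control library 3 and 7 without LPS library 1. DESeq2 called all 10 genes in both comparisons. No alternative turned the direction of a difference from control.

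**Figure D3:**
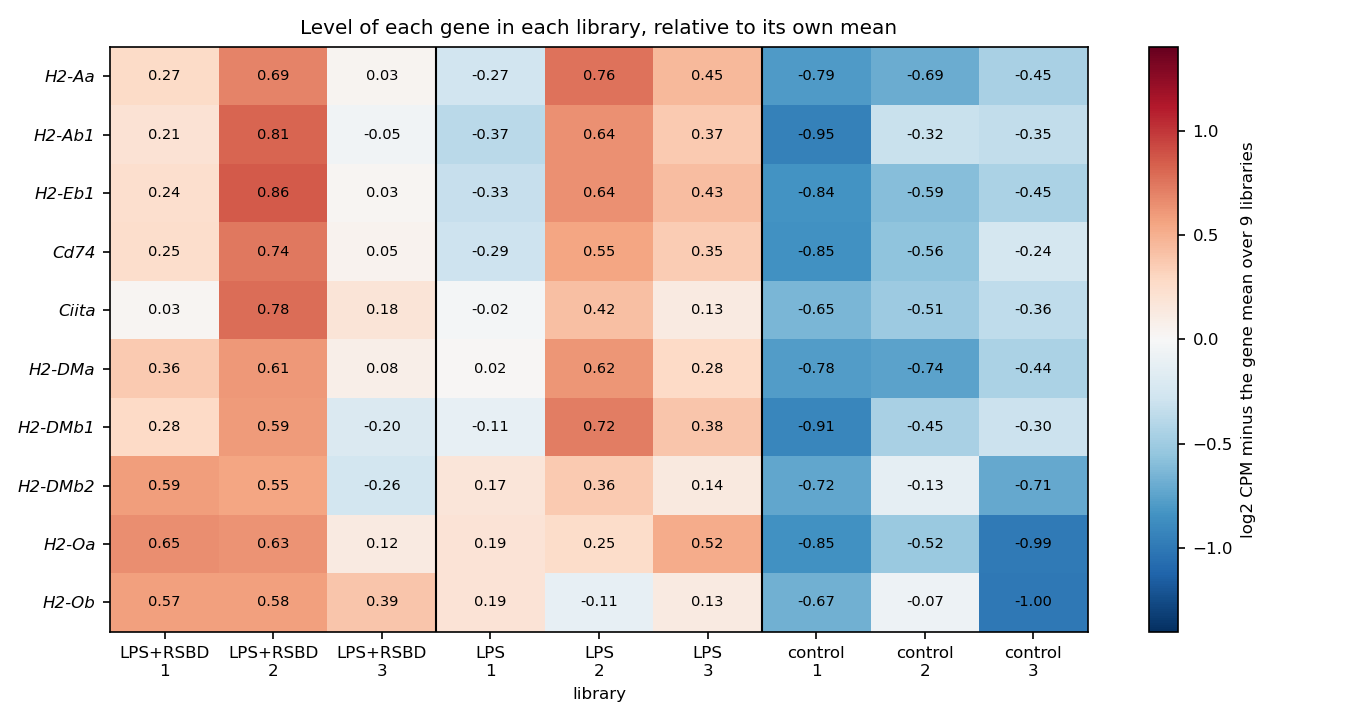
Log2 CPM of each class II gene in each library minus the gene's mean over the 9 libraries. The upper 7 rows share a pattern, from 0.59 to 0.86 in LPS plus RSBD library 2 and from -0.37 to 0.02 in LPS library 1. H2-DMb2, H2-Oa and H2-Ob are at 0.17 to 0.19 in LPS library 1, and at 0.55 to 0.63 in LPS plus RSBD library 2.

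The libraries of a group differed, and the genes fell into sets in how they followed those differences. The sets were formed after the values had been seen, and the correlations are descriptions over 9 libraries that share their scaling. Among H2-Aa, H2-Ab1, H2-Eb1, Cd74, Ciita, H2-DMa and H2-DMb1, Pearson's r of the deviations from the group means was 0.761 to 0.981 over 21 pairs of genes. Between these 7 and the remaining H2-DMb2, H2-Oa and H2-Ob it was -0.373 to 0.607. Among H2-DMb2, H2-Oa and H2-Ob it was 0.597 to 0.835. LPS library 1, lowest of the LPS libraries for H2-Aa, H2-Ab1, H2-Eb1 and Cd74, was the highest of them for H2-Ob. It was the lowest of them for H2-Oa too, and lay between the others for H2-DMb2.

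The balance of inhibitor and exchange factor was described by the ratio of summed H2-O to summed H2-DM chains in TPM. It was 0.346, 0.289 and 0.403 in LPS plus RSBD libraries, 0.354, 0.171 and 0.271 in LPS libraries and 0.310, 0.333 and 0.188 in control libraries. On the log2 scale it averaged -1.54 ± 0.24, -1.98 ± 0.53 and -1.90 ± 0.45 in the same groups (SD, n = 3 each). LPS differed from control by -0.08 (exact 2-sided permutation p = 0.8), and LPS plus RSBD from LPS by 0.43 (exact p = 0.3). The groups overlapped in both comparisons.

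Of the genes outside the set, those most like the mean pattern of H2-Aa, H2-Ab1, H2-Eb1 and Cd74 over the 9 libraries were Zap70, Syngr2, Mgat1, Axl, Got2, Gnb1, Isca2 and Tubgcp2, with Pearson's r of 0.942 to 0.956 in log2 CPM among 12388 genes ranked. With the group means taken out, they were Ccl8, Kcnn4, Ppp1r14b, Nans, Axl, Lhfpl2, Tex30 and Ctsz, with r of 0.96 to 0.986, and Axl was on both lists. Nearest to the mean of H2-Oa and H2-Ob were Kmo, Wdfy4, Plbd2, Arsb and Btla, with r of 0.955 to 0.987.

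Neighbours on chromosome 17 did not all move with the class II genes. Between H2-Oa and H2-Eb1 the table holds 5 other genes, all tested. Brd2, a bromodomain protein, fell by 0.36 ± 0.09 on the log2 scale in LPS against control (edgeR adjusted p = 0.0298), at 78.8, 92.7 and 88.1 CPM in LPS and 100, 116 and 117 CPM in control libraries. The immunoproteasome subunits Psmb8 and Psmb9 had log2 differences of 0.67 ± 0.24 and 0.61 ± 0.22, and the class I peptide transporter chains Tap1 and Tap2 had 0.44 ± 0.29 and 0.08 ± 0.18, with adjusted p of 0.0827 to 0.802. None of the 5 was called in LPS plus RSBD against LPS.

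**Figure D4:**
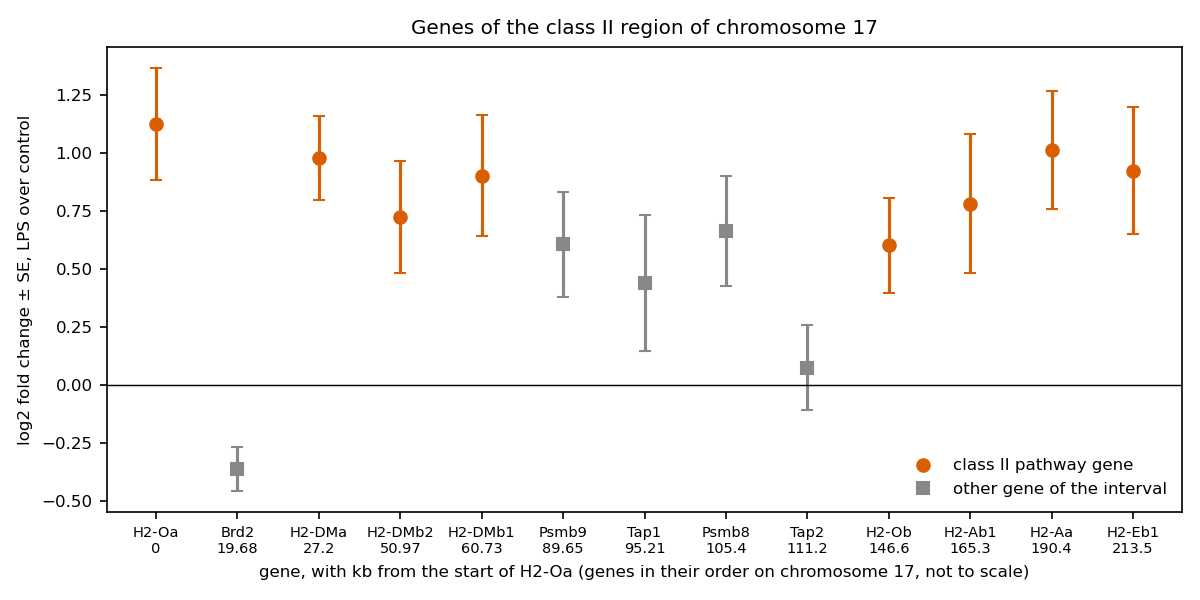
Log2 fold change with its SE of the 13 tested genes of the class II interval, LPS over control, in their order along chromosome 17, with distances in kb from the start of H2-Oa. The 8 class II genes lie between 0.60 and 1.13, and Brd2, in their midst, lies at -0.36.

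Lists of genes around the pathway are read against the 17.4% of all genes called in either direction in LPS against control and the 8.79% called higher, and counts of 2 of 7, 1 of 4, 2 of 13 and 2 of 15 in lists this small are not results about the lists. Of 7 tested endosomal proteases, 2 rose in LPS against control: Ctss, which trims the invariant chain in most antigen-presenting cells, by 1.25 ± 0.31, and Ctsd by 0.70 ± 0.19 on the log2 scale (edgeR adjusted p = 0.0292 and 0.0352). These 2 had log2 differences of -0.58 ± 0.31 and -0.46 ± 0.19 in LPS plus RSBD against LPS and did not pass. Of the 7 factors that bind the class II promoters (RFX, NF-Y and CREB subunits), 0 were called in any comparison. Their median log2 fold change in LPS against control was 0.04, and Nfya, with the smallest p, had -0.18 ± 0.08 (adjusted p = 0.116). Marchf1, the ubiquitin ligase that removes class II from the surface of dendritic and B cells, rose by 1.01 ± 0.20 (adjusted p = 0.0126), the only call among 4 genes of another class II chain and surface turnover.

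Upstream of Ciita, 2 of 13 tested genes rose in LPS against control, near the share of all genes. They were Spi1, the myeloid transcription factor PU.1, at 1.22 ± 0.30 on the log2 scale, and Ifngr2, a chain of the interferon gamma receptor, at 0.34 ± 0.09 (edgeR adjusted p = 0.0273 and 0.0352). Ifng itself had 0.94 ± 0.56 and did not pass. Among 15 interferon gamma targets outside class II, Gbp4 (1.36 ± 0.37) and Ido1 (1.54 ± 0.47) rose, 2 of 15 and again near the share of all genes, and the median log2 difference was 0.72, against -0.01 for all genes. Of 12 genes of class II recognition and co-stimulation, 0 were called in any comparison, and Cd274, the checkpoint ligand PD-L1, with the smallest p in LPS against control, had 0.63 ± 0.27. These 3 lists had 0 calls in LPS plus RSBD against LPS and 0 in LPS plus RSBD against control.

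Markers of cells that carry class II moved in different ways. Counts called in this and the other marker lists are read against the shares of all genes. In LPS against control these are 17.4% called in either direction and 8.79% called higher. In LPS plus RSBD against control they are 3.7% and 1.89%. Of 12 dendritic cell markers, 5 rose (Naaa, Itgax, Flt3, Ccr7 and Siglech) and 2 fell (Clec9a and Zbtb46) in LPS against control. The same 5 rose and Clec9a fell in LPS plus RSBD against control. Their summed level was 206 to 318 TPM in LPS plus RSBD, 263 to 274 TPM in LPS and 179 to 220 TPM in control libraries. Of 10 alveolar macrophage markers 5 rose, with Ear2 at 1.51 ± 0.25 and Siglecf at 1.11 ± 0.20 on the log2 scale, then Mrc1, Pparg and Atp6v0d2, and Mrc1 alone rose in LPS plus RSBD against control. The sums were 1127 to 2064 TPM in LPS plus RSBD, 2416 to 4202 TPM in LPS and 1581 to 2008 TPM in control libraries. Of 10 monocyte and interstitial macrophage markers 4 rose, Ly6c2, Ccr2, Csf1r and Adgre1, with sums of 527 to 889, 611 to 832 and 436 to 628 TPM in the same groups. The alveolar type 2 list had 0 genes higher and 1 lower, Sftpd, with sums of 20970 to 28820, 20890 to 28640 and 23420 to 27790 TPM. None of these lists had a call in LPS plus RSBD against LPS, and their part in the class II differences was not tested.

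B cell markers are set beside H2-Ob because H2-O is known from B cells. Their sum in TPM was 377, 330 and 284 in LPS plus RSBD, 281, 230 and 266 in LPS and 216, 332 and 186 in control libraries. The control library highest in H2-Ob was also the highest in this sum, and the LPS library lowest in H2-Ob was the lowest. Across groups the order differed. Control library 2 had 332 TPM of the markers and 22.8 CPM of H2-Ob, whereas LPS plus RSBD library 3 had 284 TPM and 31.4 CPM. Of the 10 markers 0 were called in any comparison (Fcrla, with the smallest p in LPS against control, had 0.40 ± 0.23), with median log2 differences of 0.23 in LPS against control and 0.37 in LPS plus RSBD against LPS. Their part in the level of H2-Ob was not tested.

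General leukocyte markers rose in LPS against control, 9 of 10 (by smallest p Coro1a, Cd53, Cd52, Lcp1 and Was), and summed to 1312 to 1868 TPM in LPS plus RSBD, 1606 to 2616 TPM in LPS and 1160 to 1203 TPM in control libraries. Their median log2 difference in LPS plus RSBD against LPS was -0.44, with 0 called, beside 0.12 for the class II genes. Natural killer cell markers rose in LPS against control and in LPS plus RSBD against control, 8 of 10 each and with Ncr1, Gzmb, Klrd1, Gzma and Klrb1c at the smallest p in both, whereas T cell markers had 0 calls and Cd3g had 0.72 ± 0.24 (adjusted p = 0.0602, edgeR). Neutrophil markers summed to 1596 to 8462 TPM in LPS plus RSBD, 6463 to 20780 TPM in LPS and 1830 to 6122 TPM in control libraries. In LPS against control 2 of 10, Ngp and Camp, were called, against 17.4% of all genes in either direction and 8.79% higher. LPS library 1, low in the classical chains, had the highest neutrophil and leukocyte sums, at 20780 and 2616 TPM. LPS library 2, the highest of the LPS libraries in the classical chains, came next in both, at 17630 and 2284 TPM. Endothelial markers had 3 of 10 called, all higher, in LPS against control (Tmem100, Cdh5 and Pecam1) and in LPS plus RSBD against control Tmem100 higher and Calcrl lower. Counts of 2 of 10 and 3 of 10 in lists this small are not results about the lists. In LPS against control lymph node markers had 0 of 3 called and thymus markers 0 of 1 (Prss16), with Foxn1, which defines thymic epithelium, at 0 in every library. The part of these cells in the class II differences was not tested.

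**Figure D5:**
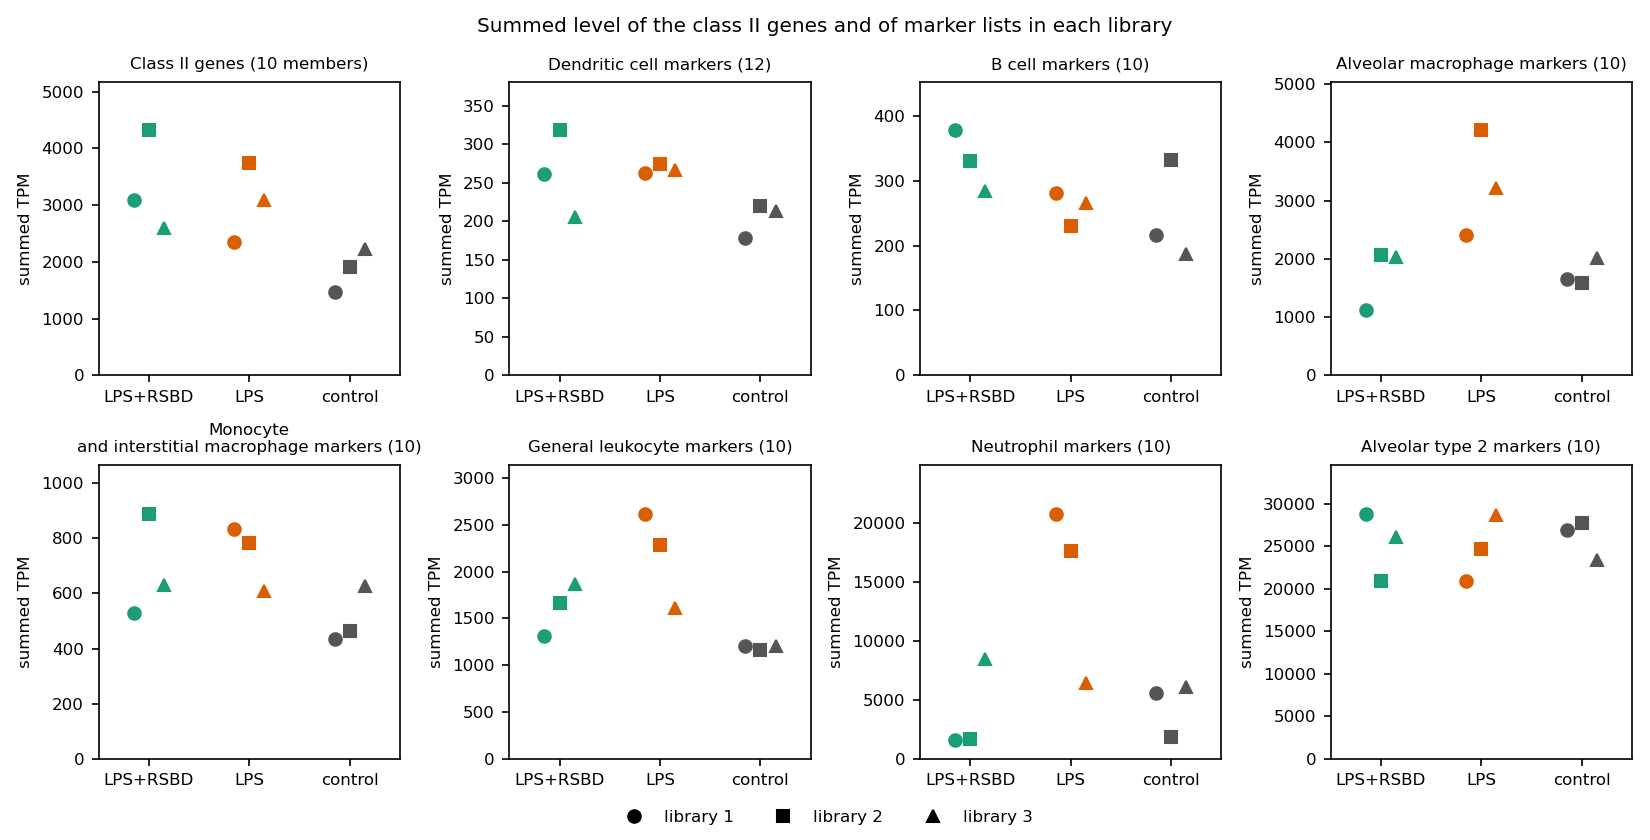
Summed TPM of the 10 class II genes and of 7 lists of cell type markers in each library, with the number of genes in brackets. All LPS libraries lie above all control libraries for the class II genes. The same holds for the general leukocyte, dendritic cell, alveolar macrophage and neutrophil markers. For the B cell, monocyte and interstitial macrophage, and alveolar type 2 markers the LPS and control libraries overlap. The class II sums of LPS plus RSBD libraries, 2589 to 4316 TPM, overlap those of LPS libraries, 2349 to 3736 TPM. The alveolar macrophage sums of the same groups, 1127 to 2064 and 2416 to 4202 TPM, do not. Of these 10 markers 0 were called between the groups. The mean of their centred log2 CPM, where each marker counts equally, did overlap, at -0.37 to 0.31 and 0.03 to 0.56.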

How the data were processed

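The authors deposited a table of expected counts (estimated counts per gene, whole numbers in every cell) and a table of TPM, each for 21930 genes. The submitters' processing notes name DESeq2 1.38.3, StringTie 2.2.0, HISAT2 2.2.1 and fastp 0.23.2, and the build GRCm38 (mm10). Counter, strand setting and annotation release were not given in the sources used here. Columns were matched to samples by group and replicate number, those of LPS plus RSBD by elimination.

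The count table was fitted with edgeR 4.0.16 under R 4.3.3: filterByExpr (minimum count 10, minimum total 15, leaving 15636 genes), TMM scaling, and 1 quasi-likelihood fit over all 9 libraries with group as the factor. Tests were 2-sided, p-values were adjusted over the 15636 genes by the Benjamini-Hochberg method, and 0.05 was the threshold. CPM are TMM-scaled. The common biological coefficient of variation was 0.189, and the 10 genes had SE of 0.18 to 0.30 (log2) in LPS against control. The fit was tested on simulated data with known changes. Ratios used TPM and exact permutation. Alternatives were DESeq2 1.42.0, other scalings, no filter, limma 3.58.1 on log2(TPM + 1) and log2(TPM + 0.1) with TPM of at least 0.5 in 3 libraries or no filter, a replicate block, 2 groups alone and leaving out each library.

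The genes and the 18 lists were chosen with earlier results of these data known. Of each list the text names called genes, at most 5 by smallest p, or the gene with the smallest p, and others as members chosen after their values were seen. Correlated genes were ranked above a mean of 5 CPM. Gene models are those of GENCODE M21, with the coordinates of the deposited table for all 10 genes. Ifi30 was not analysed here. Lists of pathway genes were not tested as sets. P-values set a difference between groups against the spread between these animals. In the comparisons with control they do not separate the treatments from whatever else sets the control mice apart.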

Additional observations from a re-analysis of the deposited data

How the results depend on the processing

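Every difference of the 10 class II genes from control was positive under all 18 alternatives. The count of genes called moved more. In LPS against control (6 called) it was 10 with DESeq2, 3 with limma on log2(TPM + 1), 2 with limma without a filter, and 1 to 8 on leaving out each library. Against control, LPS plus RSBD (4 called) had 10 with DESeq2, 1 with limma without a filter, and 0 to 7 on leaving out each library. Against LPS, LPS plus RSBD had 0 under every alternative. Over all genes, the calls in LPS against control (2723) were 3766 with DESeq2, 1532 with limma without a filter and 786 to 2870 on leaving out each library. Those in LPS plus RSBD against LPS (0) were 157 with DESeq2, 1 with limma at either pseudocount, 1 with 2 groups in the fit and 0 to 4 on leaving out each library. Those in LPS plus RSBD against control (578) were 1674 with DESeq2, 313 and 307 with limma at a pseudocount of 1 and of 0.1, 137 with limma without a filter, 240 with the replicate block and 94 to 961 on leaving out each library. The cause of these differences was not tested. limma on TPM gave 701 genes higher and 1334 lower in LPS against control, where edgeR gave 1374 and 1349, with a median of all genes of -0.09 on the log2 scale.

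Same-numbered libraries of different groups had correlations of -0.21 to 0.12 in their deviations from the group means. Libraries with different numbers had -0.16 to 0.19. With 3 libraries per group this does not settle whether the numbers pair the animals. With the replicate block, 9 of the 10 genes were called in LPS against control, 3 in LPS plus RSBD against control and 0 in LPS plus RSBD against LPS. The ratio of H2-O to H2-DM, LPS minus control, was -0.34 to 0.20 on leaving out each library, and -0.17 in CPM. The same ratio, LPS plus RSBD minus LPS (0.43), was 0.15 without LPS library 2 and 0.67 without LPS library 1, the lowest and highest on leaving out each library, and 0.43 in CPM. H2-Ab1, H2-DMb2, H2-Ob and Cd74, with fitted folds of 1.52 to 1.72, did not pass in LPS against control. Their SE was 0.20 to 0.30 on the log2 scale, and that of the called genes 0.18 to 0.27. Their unadjusted p was 0.0124 to 0.0277, against 0.00783 or less in the called genes (edgeR). What lies behind these values was not tested.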
